A study of Rattus norvegicus with 9 samples.

Results

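The exchangers and cotransporters that move bicarbonate, protons and chloride across cell membranes were examined in whole rat kidney by microarray. Members were the genes whose gene name in the array files began with Slc4a, Slc9a, Slc12a, Slc24a or Slc26a, with the tubule segment genes Slc4a1, Slc4a9, Slc12a1, Slc12a3 and Slc26a4 left out. The rule found 42 genes, read by 53 probes, of the 26115 gene names and 30367 gene probes on the array. They comprised 9 genes of the SLC4 family, 11 of SLC9, 7 of SLC12, 6 of SLC24 and 9 of SLC26. The name rule also took in Slc4a1ap, which encodes kanadaptin, and Slc9a3r1 and Slc9a3r2, which encode the NHERF scaffold proteins and are named Nherf1 and Nherf2 in RefSeq today; these proteins bind exchangers or are named after one, and are not carriers themselves.

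Kidneys came from Fisher F344 rats in a model of donation after circulatory death, with 20 min. of warm ischaemia by arterial clamping before nephrectomy in both groups (the labels name the abdominal aorta and the study's methods the renal artery). The MSC group (4 arrays) was then perfused for 4 hrs at 4°C with Belzer solution (BS), a cold preservation fluid, to which 3000000 mesenchymal stromal cells (MSC) had been added. These cells were grown from the bone marrow of Sprague Dawley rats carrying an EGFP transgene. The other group (5 arrays) was described as not perfused (NP) in the treatment field of its labels and in the study's design, while its sample titles name a perfusion with BS. It is called NP here, and read as such the comparison holds cold perfusion and MSC together, which cannot be told apart. Another MSC array, discarded by the authors for quality, was not analysed here.

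Each array carried 1 labelled RNA. Median raw intensity lay between 577 and 917, and 65.6% to 74.3% of gene spots were well above background. The kidney was recognisable by its own genes, with Umod of the thick ascending limb at 17.75 to 18.78 and Aqp2 of the principal cell at 17.98 to 18.62 on the normalized log2 intensity scale over the 9 arrays. All values below are on that scale, where a difference of 1 is a fold change of 2, and differences are MSC minus NP. As RNA came from whole kidney, fewer cells of a type and less RNA per cell cannot be told apart. The study describes 5 kidneys in each group, and the labels number the arrays as replicates. Arrays with the same scan date in the file headers are called a slide below.

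Cells produce acid continuously and must export it while keeping their volume. SLC4 proteins carry bicarbonate, mostly in exchange for chloride or together with sodium. SLC9 proteins exchange sodium for protons at the cell surface and in endosomes. SLC12 proteins move chloride with sodium or potassium and so set cell chloride and volume, SLC24 proteins exchange sodium for calcium and potassium, and SLC26 proteins exchange anions such as chloride, bicarbonate, sulphate and oxalate. In the proximal tubule, apical sodium and proton exchange and basolateral bicarbonate exit together reclaim filtered bicarbonate.

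Probes are 60 bases long, and the letters decide which RNA a value stands for. The probes of Slc12a7 and Slc4a4 on which results below turn are shown first, with capitals at the whole codons of the only sense frame that holds no stop codon. Both are given 5′ to 3′ with positions in the rn4 build from the array files. The Slc12a7 probe lies at chr1:30282537-30282596 on the minus strand, from base 3210 of its transcript. The Slc4a4 probe lies at chr14:20384818-20384877 on the minus strand, from base 3187.
Slc12a7: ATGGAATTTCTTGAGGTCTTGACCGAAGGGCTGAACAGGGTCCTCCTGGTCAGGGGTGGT
Slc4a4: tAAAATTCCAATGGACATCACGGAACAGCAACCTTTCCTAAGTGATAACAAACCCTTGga

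The next pair shows how alike neighbouring family members are. Among the 1378 pairs of member probes, the Slc4a7 and Slc4a8 probes were the closest, with 46 of 55 aligned bases identical (83.6%) when set against each other without gaps. Capitals mark the identical bases. The Slc4a7 probe, from base 3295 of its transcript, spans an intron at chr15:12084114-12087723 on the minus strand. The Slc4a8 probe lies at chr7:139568550-139568609 on the plus strand, from base 2656. Cross-hybridisation between them was not tested. Slc4a7 passed the filter on every array while Slc4a8 did not pass it.
Slc4a7: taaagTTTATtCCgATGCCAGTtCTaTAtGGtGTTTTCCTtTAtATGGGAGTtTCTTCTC
Slc4a8: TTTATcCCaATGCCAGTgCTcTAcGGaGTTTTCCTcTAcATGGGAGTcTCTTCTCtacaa

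Of the 42 genes, 25 passed the filter on dim probes, which asked for a value above 1.1 times the 95th percentile of the negative controls on at least 4 arrays, a limit of 8.75 to 8.87. Of these, 24 lay above the limit on all 9 arrays, and Slc24a6 on 4 of 5 NP arrays and all 4 MSC arrays. By limma over the 13836 genes tested, none of the 25 passed a false discovery rate (FDR) under 0.05 with a fold change over 1.5, against a background of 0% of all genes. The study called Tmem52b and Calb1 higher in MSC at these thresholds, and here their FDRs were 0.0998 and 0.211. The lowest FDR of a member was 0.373. At an unadjusted limma p under 0.05, 2 members were higher in MSC kidneys, Slc12a7 and Slc24a6, beside 6.58% of all genes tested (911 genes). None of the 25 was lower at that p, beside 5.1% of all genes (705 genes). Without MSC 3, or without MSC 4, the count of members higher was 0, and without NP 1 the count lower was 3. The values of Slc12a2 in MSC lay above all those in NP, beside 3.17% of all genes, and no member lay wholly below, beside 2.13%. The counts of members lie near or under those backgrounds and say nothing particular about them.

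Among the members named here, differences ranged from −0.36 for Slc4a7 to 0.28 for Slc12a7, and none of the 25 reached 1.5-fold either way. Of the 25, 16 were above and 9 below 0 (64% above), where 48.5% of all genes tested were above. The median difference was 0.04 over the members and −0.01 over all genes. Without kanadaptin and the NHERF genes it was 0.04 over 22 genes. By family, the median was −0.05 for the 7 SLC4 genes, 0.04 for the 7 SLC9 genes, 0.09 for the 6 SLC12 genes, 0.22 for the 2 SLC24 genes and 0.04 for the 3 SLC26 genes. With median scaling that of SLC9 was −0.01, where all genes shifted to −0.04. Without NP 1 the median was 0.0086 over the members and −0.16 over the SLC4 genes, and without NP 5 that of SLC4 was 0.02. That of SLC9 was 0.02 without MSC 1 or NP 2, and that of SLC12 was 0.06 without NP 1. That of SLC26 was −0.04 without NP 2 and 0.09 without NP 3.

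**Figure D1:**
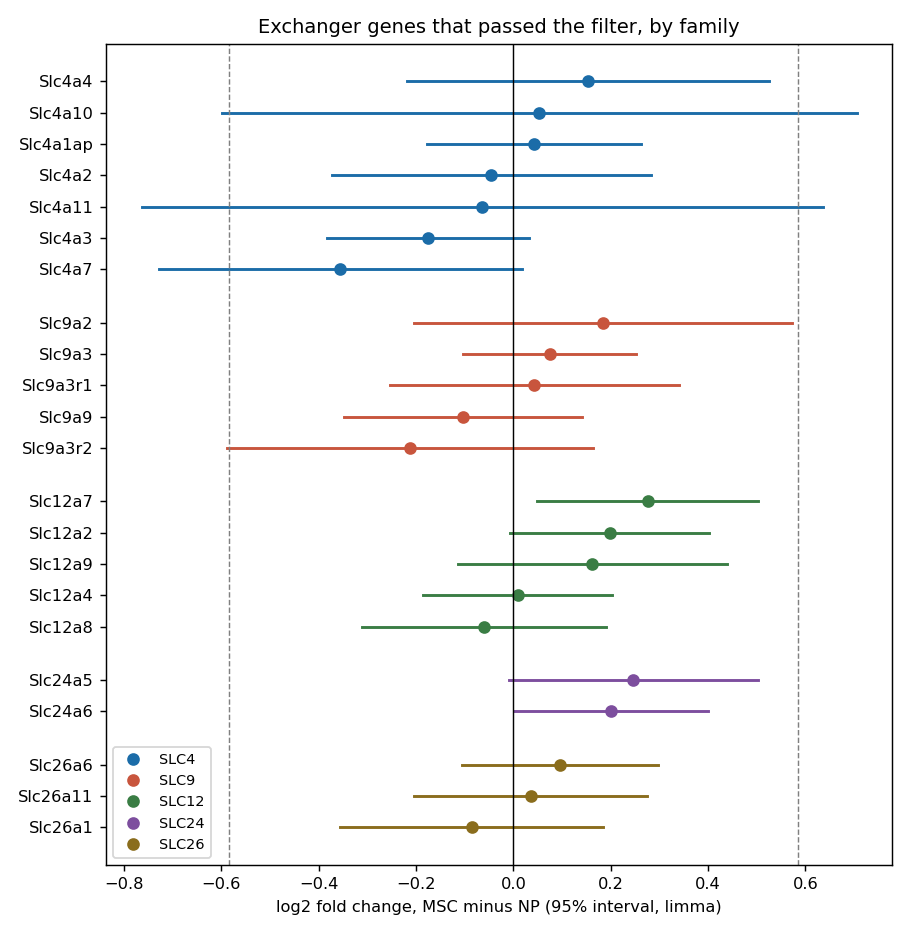
Log2 fold change of 22 of the member genes that passed the filter, MSC minus NP (x axis), grouped by family (y axis), with 95% limma intervals as bars and dashed lines at a fold change of 1.5. Only the Slc12a7 and Slc24a6 intervals leave out 0, and every point lies inside the dashed lines.

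The spread within a group was of the same size as in other genes, with a median standard deviation (SD) of 0.17 over the members and 0.18 over all genes. NP 1 and NP 2 held most of the extreme values. NP 1 was the lowest NP array for 9 members and the highest for 9 others, and NP 2 the lowest for 8 and the highest for 8. Over all genes, NP 1 was lowest for 35.6% and highest for 21.7%, and NP 2 lowest for 25.0% and highest for 34.5%. Without both arrays the median difference of the members became −0.03.

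**Figure D2:**
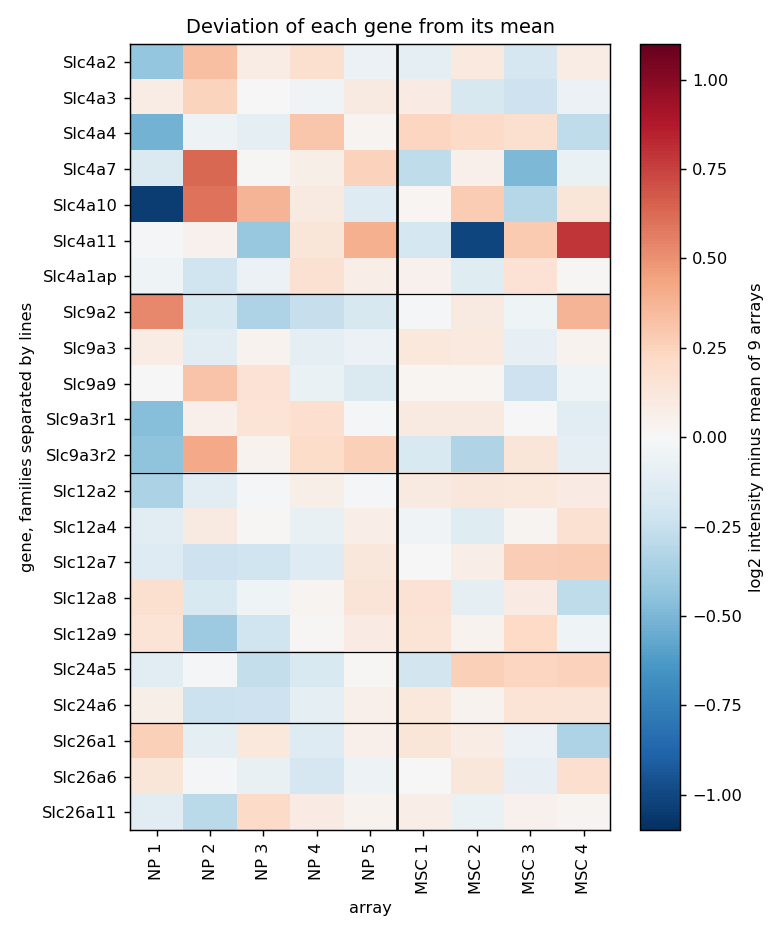
Log2 intensity of 22 member genes minus its mean over the 9 arrays (colour), with arrays in columns, NP left and MSC right of the black line, and genes in rows by family. The strongest colours are single arrays of Slc4a10 and Slc4a11, and NP 1 and NP 2 often stand at opposite ends.

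Among the SLC4 bicarbonate carriers, Slc4a4 encodes NBCe1, the sodium bicarbonate cotransporter of the basolateral side of the proximal tubule. It read 13.71, 14.17, 14.13, 14.54 and 14.26 on the 5 NP arrays and 14.46, 14.44, 14.41 and 13.95 on the 4 MSC arrays. The groups overlapped, with NP 1 lowest of all and MSC 4 apart from the other MSC arrays. The difference was 0.15 (95% interval −0.22 to 0.52), and within slides it was 0.45 on slide 1 and −0.22 on slide 2. It was 0.04 without NP 1, 0.25 without NP 4 and 0.27 without MSC 4. A second Slc4a4 probe gave 0.07.

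Slc4a7 encodes NBCn1, an electroneutral sodium bicarbonate cotransporter found in the thick ascending limb among other places. It read 9.48, 10.27, 9.65, 9.70 and 9.89 in NP and 9.36, 9.69, 9.15 and 9.57 in MSC. MSC 1 and MSC 3 lay below every NP array, and MSC 2 and MSC 4 lay within the NP range. The difference was −0.36 (95% interval −0.73 to 0.02; limma FDR 0.443), negative on both slides, at −0.27 and −0.44. An exact permutation test (two-sided), which enumerates each way to draw groups of these sizes, gave p = 0.0952, or 0.286 after adjustment over the 12 members tested this way. The smallest p that this test can give is 0.00794.

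Slc4a2 encodes AE2, a basolateral chloride bicarbonate exchanger of many epithelia. Its more variable probe read 12.49, 13.25, 13.00, 13.09 and 12.85 in NP and 12.81, 13.02, 12.73 and 13.00 in MSC, a difference of −0.05 (95% interval −0.37 to 0.28), which was −0.16 without NP 1, 0.03 without NP 2 and 0.01 without MSC 3. The other Slc4a2 probe, from base 3841 of the transcript where the first starts at base 3992, differed by 0.23. It read 12.46, 12.16, 12.27, 12.30 and 12.29 in NP against 12.58, 12.54, 12.35 and 12.63 in MSC, overlapping only between NP 1 and MSC 3. Its unadjusted limma p was 0.0269 with an FDR of 0.385 in the fit of all probes. The gap between the 2 probes' differences had an exact permutation p of 0.222.

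Slc4a3, which encodes the related exchanger AE3, differed by −0.18 (95% interval −0.38 to 0.03), with both slides negative and 3 MSC arrays below every NP array. Slc4a10, a sodium-driven bicarbonate carrier, differed by 0.05 but ranged from 10.78 on NP 1 to 12.42 on NP 2. A second Slc4a10 probe read 8.08 to 8.56, did not pass the filter and differed by −0.13. Slc4a11, a distant relative that conducts protons, differed by −0.06 and ranged from 10.92 on MSC 2 to 12.72 on MSC 4. Kanadaptin differed by 0.04.

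Among the SLC9 sodium proton exchangers, Slc9a3 encodes NHE3, the apical exchanger that reclaims sodium and bicarbonate in the proximal tubule. It read 9.03, 8.83, 8.99, 8.84 and 8.89 in NP and 9.06, 9.05, 8.86 and 8.99 in MSC. The array files place 29 of the 60 bases of this probe, from base 4958 of the transcript, on the genome. The values lay close to the filter limit and the groups overlapped, with a difference of 0.07 (95% interval −0.10 to 0.25). With Agilent's background-subtracted signal and 75th percentile scaling together the difference was 0.20, and with that scaling alone 0.11. The other Slc9a3 probe, from base 2495, was well above background on all 9 arrays but did not pass the filter, and differed by −0.01, so the 2 probes had opposite signs.

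Slc9a3r1 encodes NHERF1, which anchors NHE3 and the phosphate transporter at the brush border. It read 13.19, 13.71, 13.81, 13.84 and 13.63 in NP and 13.76, 13.76, 13.66 and 13.54 in MSC. NP 1 stood lowest and the other arrays overlapped, with a difference of 0.04 (95% interval −0.25 to 0.34) that turned to −0.07 without NP 1 and to −0.01 with array weights or with median scaling, under which the median of all genes was −0.04. Slc9a3r2, for NHERF2, differed by −0.21 (95% interval −0.59 to 0.16), with NP 1 lowest of all at 9.66 and the other NP arrays at 10.14 to 10.52. Of the other exchangers, the apical Slc9a2 (NHE2) differed by 0.18 (95% interval −0.20 to 0.57). It stood at 10.38 on NP 1 and at 9.52 to 9.69 on the other NP arrays. The endosomal Slc9a9 (NHE9) differed by −0.10 (95% interval −0.35 to 0.14), with NP 2 the highest array at 9.45. None of the 7 SLC9 genes had an unadjusted limma p under 0.05.

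Among the SLC12 chloride cotransporters, Slc12a2 encodes NKCC1, which brings sodium, potassium and chloride into the cell. It read 10.37, 10.59, 10.70, 10.78 and 10.69 in NP and 10.82, 10.84, 10.84 and 10.81 in MSC. The 4 MSC values were nearly equal and above every NP value, the highest of which was NP 4. The difference was 0.20 (95% interval −0.01 to 0.40; limma FDR 0.438), with 0.27 on slide 1 and 0.08 on slide 2. It was 0.12 with array weights and 0.10 without NP 1 and NP 2, and 0.26 with the background-subtracted signal and 75th percentile scaling together. The exact permutation p was 0.0159, or 0.190 adjusted over the 12 members. The second probe of the gene, 9.33 to 9.46 in NP and 9.51 to 9.60 in MSC, likewise did not overlap and differed by 0.16, with a limma FDR of 0.390 among all probes.

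Slc12a7 encodes KCC4, a potassium chloride cotransporter that carries chloride out of tubule cells. Its values from the probe printed above were 8.97, 8.88, 8.89, 8.97 and 9.24 in NP and 9.11, 9.18, 9.39 and 9.39 in MSC. NP 5 lay above MSC 1 and MSC 2, and the other NP arrays lay below all MSC arrays. The difference was 0.28 (95% interval 0.05 to 0.50; limma FDR 0.373), with 0.23 and 0.28 on the 2 slides. The unadjusted limma p was 0.0218. The exact permutation p was 0.0317, or 0.190 adjusted. The lowest of these values was 0.07 above the filter limit of its array. The other probe, from base 4607, read 12.38 to 12.81 in NP and 12.50 to 12.82 in MSC, which overlapped, and differed by 0.07. The Slc12a7 difference from the first probe was 0.57 with Agilent's background-subtracted signal and 75th percentile scaling together, 0.31 with that scaling alone and 0.27 with median scaling, each in place of cyclic loess.

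**Figure D3:**
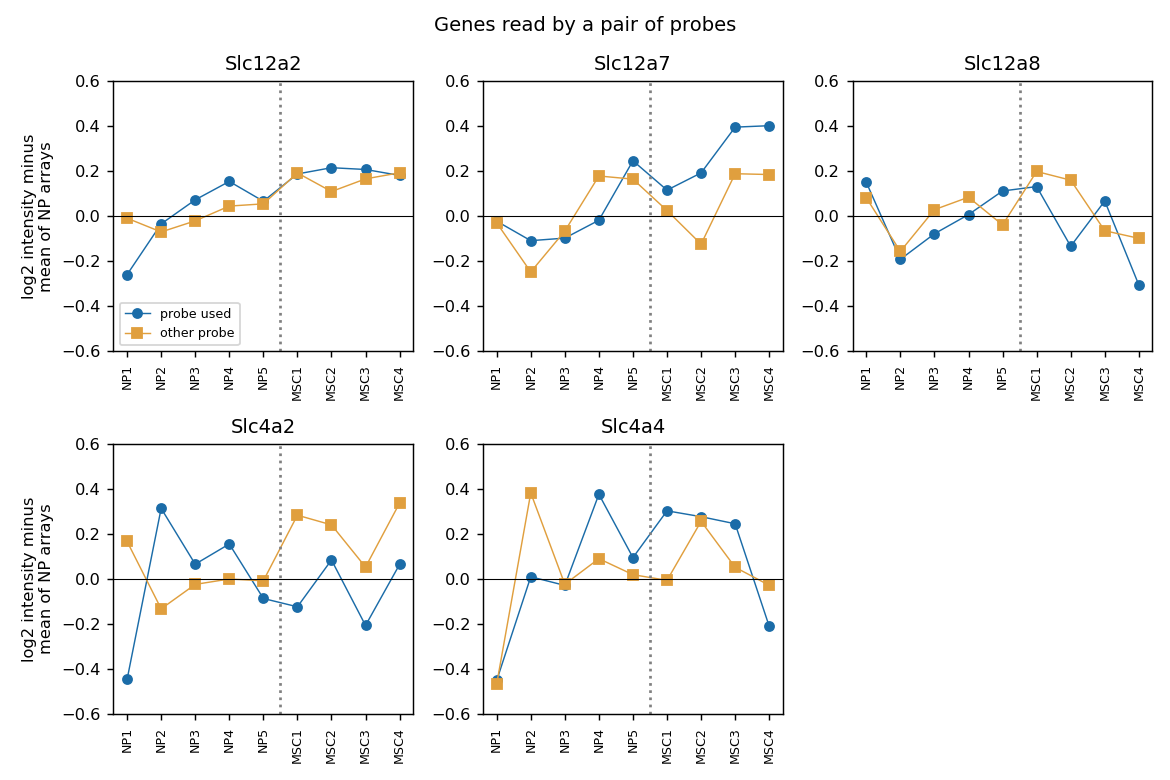
Log2 intensity minus the mean of the 5 NP arrays (y axis) on each array (x axis) for 5 member genes with 2 passing probes, with the probe used for the gene as blue circles and the other probe as orange squares. The probes of Slc12a2 both lie above 0 on every MSC array. Those of Slc4a2 part on NP and MSC arrays alike, with a correlation of −0.36 over the 9 arrays.

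The differences given by the Slc12a7 probes were 0.21 apart, with an exact permutation p of 0.0317, or 0.0952 adjusted over the 6 genes with a pair of passing probes. The pairs of Slc12a2, Slc12a8 and Slc4a4 differed by 0.03, −0.11 and 0.09, with exact permutation p from 0.310 to 0.849. Slc12a4, which encodes KCC1, a potassium chloride cotransporter of most cells, differed by 0.01 (95% interval −0.18 to 0.20). Slc12a8 differed by −0.06 and Slc12a9 by 0.16 (95% interval −0.11 to 0.44).

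In the SLC24 family, Slc24a6 encodes the sodium calcium exchanger of mitochondria and is named Slc8b1 in RefSeq today. It read 9.06, 8.77, 8.78, 8.90 and 9.06 in NP and 9.12, 9.04, 9.16 and 9.15 in MSC. MSC 2 lay just below NP 1 and NP 5, and the other MSC arrays lay above all NP arrays. The difference was 0.20 (95% interval 0.00 to 0.40; limma FDR 0.426), with 0.21 and 0.17 on the 2 slides. The unadjusted limma p was 0.0489. The exact permutation p was 0.0556, or 0.222 adjusted. Slc24a6 was among the 12 members tested this way only through its unadjusted limma p, so the exact test is no independent check. Slc24a6 was the member nearest to the filter limit and lay under it on 1 NP array. The difference was 0.40 with Agilent's background-subtracted signal and 75th percentile scaling together, and 0.23 with that scaling alone.

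Slc24a5 encodes an intracellular exchanger best known from pigment cells. Its NP values ran from 9.87 to 10.15, with 9.93 on MSC 1 and 10.37 to 10.39 on the other MSC arrays. The difference was 0.25 (95% interval −0.01 to 0.50; limma FDR 0.438).

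Among the SLC26 anion exchangers, Slc26a1 encodes SAT1, which moves sulphate and oxalate across the basolateral side of the proximal tubule. It read 16.09, 15.73, 15.94, 15.68 and 15.89 in NP and 15.96, 15.91, 15.76 and 15.49 in MSC. The groups overlapped, with MSC 4 lowest, and the difference was −0.09 (95% interval −0.36 to 0.18), or 0.01 without MSC 4 and −0.03 without NP 1. Over 31 alternatives the Slc26a1 difference ran from −0.17 to 0.07. Slc26a6 encodes the apical chloride and oxalate exchanger of the same segment. It read 11.62, 11.47, 11.41, 11.31 and 11.43 in NP and 11.49, 11.62, 11.40 and 11.67 in MSC, a difference of 0.10 (95% interval −0.11 to 0.30) between overlapping groups, or 0.05 without MSC 4 and 0.06 without NP 4. Slc26a11 encodes a sodium-independent sulphate transporter that has also been found in intercalated cells. It read 9.11, 8.93, 9.44, 9.32 and 9.27 in NP and 9.30, 9.16, 9.27 and 9.26 in MSC, with the MSC arrays in the middle of the NP range and a difference of 0.04 (95% interval −0.20 to 0.27), which was 0.01 without NP 1 and turned to −0.04 without NP 2 or with array weights. Over 31 alternatives the Slc26a11 difference ran from −0.09 to 0.11.

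**Figure D4:**
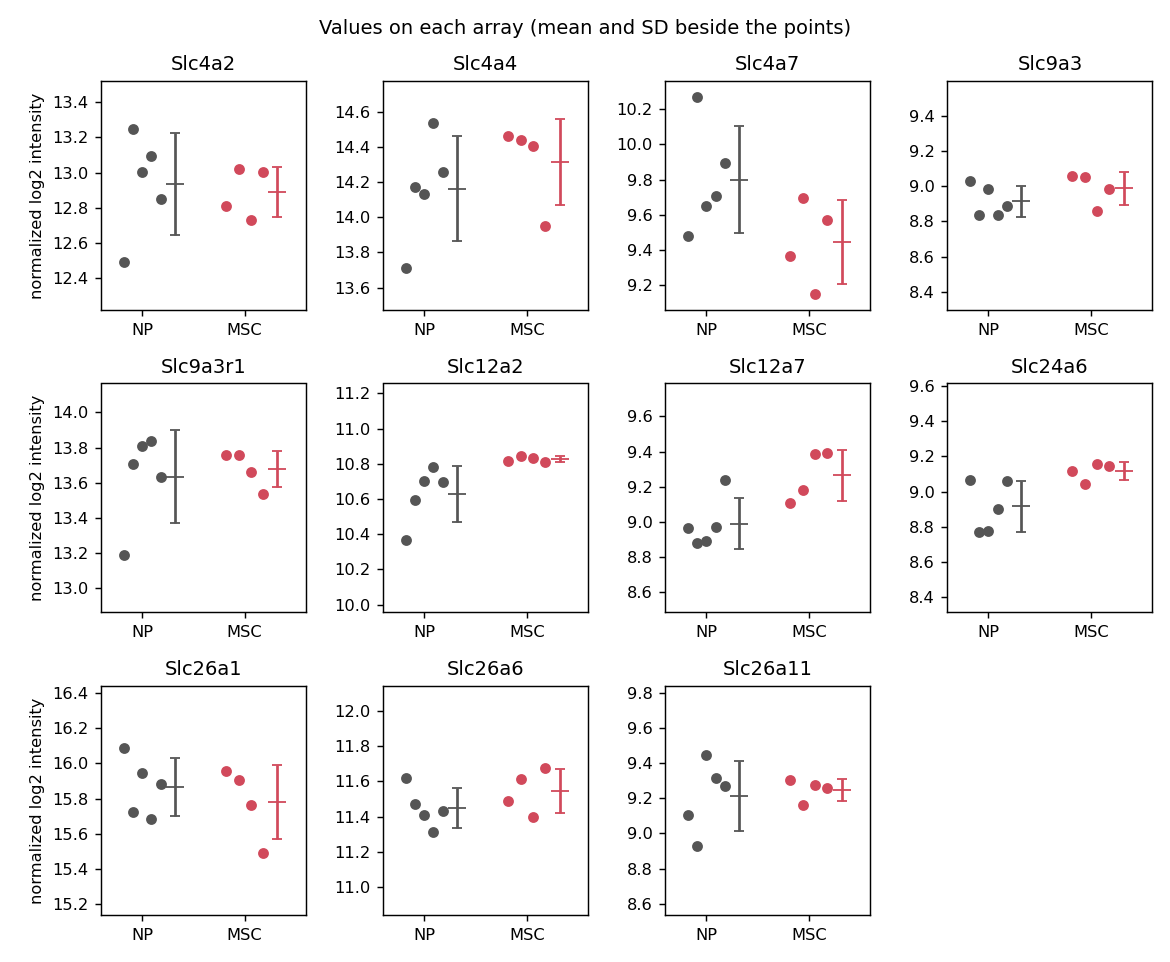
Normalized log2 intensity (y axis, the same span in each panel) on the 5 NP and 4 MSC arrays for 11 members given array by array, with the mean and SD as a bar beside the points. In Slc12a2 alone do the MSC points all lie above the NP points.

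The other 17 members did not pass the filter and were not in the main test. For Slc26a3, Slc26a5, Slc26a8, Slc26a9 and Slc9a7, no probe was well above background on any array. Slc12a5, Slc24a1, Slc24a4, Slc26a2, Slc4a5, Slc4a8, Slc9a5 and Slc9a8 were above background on some arrays. Slc24a2, Slc24a3, Slc26a7 and Slc9a4 were above background on all 9, yet above the limit on fewer than 4 arrays. Among them, Slc26a7, a chloride bicarbonate exchanger of the medullary collecting duct, ranged from 8.27 to 8.60. Slc9a4 (NHE4), a basolateral exchanger picked out after its values were seen, read 8.39, 8.50, 8.49, 8.64 and 8.67 in NP and 8.66, 8.89, 8.65 and 8.73 in MSC, where NP 5 lay above the lowest MSC arrays. Its unadjusted limma p without the filter was 0.0287, with an FDR of 0.498. Slc24a3 stood at 9.43 on MSC 3 and at 8.79 or less elsewhere, and MSC 3 was also the array with the highest score of fat genes, at 2.28. On MSC 4, where the fat score was 1.44, Slc24a3 read 8.74, and on MSC 1, at −0.99, it read 8.79. The link of Slc24a3 with fat genes was not tested.

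Slides, told apart by scan date alone, were compared as a grouping of arrays. Slide 1 held NP 1 to 3 with MSC 1 and 2, and slide 2 held NP 4 and 5 with MSC 3 and 4. Of the 25 members, 13 had the same sign on both slides, 8 higher and 5 lower, which is 52% beside 64.5% of all genes tested. The members that pointed the same way on both included Slc12a7, Slc12a2, Slc24a6, Slc24a5 and Slc4a7.

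Genes that work beside these carriers were read from fixed lists. Of 36 names of carbonic anhydrases, proton channels and pumps, acid sensors and carrier partners, 22 were tested. Among these 13 were higher in MSC, where 48.5% of all genes were, and 2 had an unadjusted limma p under 0.05, both higher, beside 6.58% of all genes, with a median difference of 0.07 beside −0.01 over all genes. They were Car8, an anhydrase relative without enzyme activity, at 0.44 (FDR 0.373), and Car3, at 1.48 (FDR 0.411). Car3 is abundant in fat and muscle, and stood at 11.65 on MSC 3 and 10.26 on MSC 4 but at 7.89 on MSC 1, where the fat genes scored 2.28, 1.44 and −0.99. The part of fat in Car3 was not tested. Car2, the cytosolic anhydrase of tubule cells, differed by 0.09 and the membrane-bound Car4 by 0.06. None was lower at that p and none passed the FDR.

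The 10 genes of ammonium handling and renal acid excretion were all tested, and 7 were higher, 3 of them at an unadjusted limma p under 0.05 (6.58% of all genes). The ammonia transporters of the collecting duct, Rhbg and Rhcg, differed by 0.70 and 0.81, and each had all MSC arrays above all NP arrays (3.17% of all genes). The aminotransferase Got1 differed by 0.50. Pck1, the gluconeogenic enzyme of the proximal tubule, differed by −0.08. The median was 0.19, and all had a limma FDR of 0.335 or more.

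Markers of cell types were also read from fixed lists, and none passed an FDR under 0.05 in the main fit. Of all genes tested, 48.5% were higher in MSC. All 9 intercalated cell markers were higher in MSC, 5 at an unadjusted limma p under 0.05 (6.58% of all genes), with a median of 0.60, and their mean centred score ran from −0.70 to 0.25 in NP and 0.17 to 0.47 in MSC. The 7 thick ascending limb markers had a median of 0.31 with 6 higher, 4 at that p. The 6 distal convoluted and connecting tubule markers tested had a median of 0.63 with all higher, 4 at that p, and the 10 proximal tubule markers 0.16 with 8 higher, 2 at that p. Of the genes left out of the member rule, Slc12a1 differed by 0.50, Slc12a3 by 0.59, Slc4a9 by 0.62, Slc26a4 by 0.88 and Slc4a1 by 0.08. All 5 red cell markers tested were lower in MSC, each at that p, at a median of −1.68, with a score of 0.13 to 1.15 in NP and −2.80 to 0.62 in MSC. All 6 fat markers tested were higher, 3 at that p, with a median of 1.33 and a score of −1.06 to 0.07 in NP and −0.99 to 2.28 in MSC. Podocyte markers had 0 of 5 higher with a median of −0.33, none at an unadjusted p under 0.05. Of the other lists, 5 of 7 principal cell, 3 of 6 endothelial, 4 of 6 leukocyte and 5 of 6 mesenchymal stromal cell markers were higher, with medians of 0.13, 0.05, 0.20 and 0.29, and among the stromal markers Col1a1, a collagen gene, differed by 1.06 (limma FDR 0.335). At an unadjusted limma p under 0.05, 2 principal cell markers and 1 stromal marker were higher, 1 endothelial marker was lower and 2 leukocyte markers, the neutrophil genes S100a8 and S100a9, were lower by fold changes of −0.85 and −0.95 on the log2 scale. The part of these cell types in the values of the exchangers was not tested. Without MSC 3 and MSC 4, Slc12a7 differed by 0.15 and Slc12a2 by 0.20, and no member had an unadjusted p under 0.05 in the higher direction.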

How the data were processed

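Total kidney RNA was labelled with Cy3 and hybridised to Agilent rat arrays, 1 sample per array. The authors scanned and quantified the spots with Agilent Feature Extraction 10.7.3.1 (file headers), and the deposited files give the mean intensity of each spot without background subtraction, which was used here. The authors also deposited a table of normalized log2 values for 30507 probes, used as an alternative. Its values correlated with those computed here at 0.9999 or more on each array.

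Cyclic loess was applied to the log2 intensities of all arrays (limma 3.58.1, R 4.3.3). Outlier spots were left out. A probe was kept (15722 in all) if a spot of it exceeded, on at least 4 arrays, the 95th percentile of the negative controls' log2 values multiplied by 1.1, spots were averaged, and the probe of largest variance stood for its gene, leaving 13836 genes. limma's lmFit and eBayes compared groups, with Benjamini-Hochberg FDR over all genes; a call needed FDR under 0.05 and a fold change over 1.5. Single members were compared by exact two-sided permutation tests over arrays. The number of arrays limits the precision. The fit was tested on simulated data.

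Members that passed were named, except a few that, with a probe sequence, are not reported here, and array values were given for members with an unadjusted p under 0.05 and for those with a known place in the tubule or in cell pH and volume. Array values of Slc9a4, Slc24a3 and the second probes were added after they were seen. Members and lists were chosen with earlier results of these data known. Accessions of 46 of the 53 member probes matched RefSeq. Alternatives varied the normalization, background, filter, probe, variance model, blocks and arrays.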

Additional observations from a re-analysis of the deposited data

Results flagged for a closer look

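Of 24 groups of values tested among the 12 members tested singly, 2 held an array far from the others, where chance gives about 1 in 20 groups, or 1.2. For Slc12a7, NP 5 stood at 9.24 with the nearest NP array at 8.97, a gap of 0.744 of the range of the group. For Slc4a4, MSC 4 stood at 13.95 with the nearest MSC array at 14.41, a gap of 0.888 of the range.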

How the results depend on the processing

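No member passed the FDR under any alternative run, and the lowest FDR of a member under any was 0.200, without NP 1. The count of members higher at an unadjusted limma p under 0.05 moved from 2 to 0 with 75th percentile or median scaling, to 5 with no filter, 4 with a filter on spots well above background, 4 with each probe tested, and 1 with the brightest probe, array weights, slide as a block or the deposited log2 values. Leaving out 1 array gave 0 to 3, with 0 without MSC 3 or MSC 4, and leaving out both gave 0. The count of members lower moved from 0 to 1 with quantile normalization, to 2 with median scaling or array weights, to 1 without MSC 3 and MSC 4 and to 1 without NP 1 and NP 2. Leaving out 1 array gave 0 to 3, with 3 without NP 1 and 1 without MSC 1 or MSC 2. Same-numbered NP and MSC arrays deviated together with correlations of 0.199, 0.326, −0.346 and 0.045. Of 4 MSC arrays, too few to decide pairing, 2 fitted best to their own number. A fit with the replicate block gave 1 member higher and 2 lower.

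The median of all members was −0.0323 without NP 1 and NP 2, and 0.0086 to 0.06 without 1 array. Without 1 array that of SLC4 was −0.16 to 0.02, that of SLC9 0.0166 to 0.06 and that of SLC12 0.06 to 0.12. That of SLC9 was −0.0122 with median scaling, below 0 but above the −0.0397 of all genes under it, 0.0113 with no filter and 0.10 without MSC 3 and MSC 4. Scaling also changed which probe had the largest variance, so that another probe stood for Slc4a2 with 75th percentile scaling, for Slc4a2 and Slc12a7 with median scaling, and for Slc4a2, Slc4a4 and Slc12a2 with the background-subtracted signal. The median of SLC12 was 0.0039 with median scaling (0.07 with the probes kept) and 0.15 (0.14 kept) with the background-subtracted signal and 75th percentile scaling together (0.10 with that scaling alone), and that of SLC24 0.35 (0.26 alone). That of SLC4 turned from −0.05 to 0.05 with 75th percentile scaling, 0.06 with the processed signal as well and 0.02 with median scaling, but was −0.06, −0.06 and −0.09 with the probes kept. It was 0.04 with the mean of probes or each probe tested, 0.02 with the replicate block or without NP 5. That of SLC26 turned to −0.0577 without NP 1 and NP 2, −0.04 with no filter, −0.01 with array weights and −0.04 without NP 2. Of the single genes, Slc12a7 differed by 0.02 with median scaling through its other probe (0.27 with the probe kept), 0.57 with the background-subtracted signal and 75th percentile scaling together and 0.07 with the brightest probe. Slc4a2 differed by 0.19 to 0.25 under the scalings that chose its other probe and −0.09 to −0.06 with the probe kept. Slc12a2 differed by 0.32 with the background-subtracted signal through its other probe (0.26 kept). With the probes kept, the counts of members higher and lower were 0 and 0 with 75th percentile scaling, 0 and 2 with median scaling, 2 and 1 with quantile normalization and 1 and 0 with the deposited values. The other causes were not tested. Leaving out pairs of arrays, testing each probe and keeping the probes were chosen after seeing the data. Low signal over background limits Slc12a7, Slc24a6, Slc9a3 and the 17 members under the filter.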
